A study of Mus musculus with 4 samples.

Results

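Keratinocytes without Il17rc and keratinocytes without Il17rd, both given IL-17A, were compared directly with each other. The comparison used 2 of the 4 RNA-seq libraries of the study, 1 for each knockout (KO), and was defined by genotype label and not by any measured value. Of 13102 gene rows, 12341 were kept after pseudogenes, mitochondrial genes and chromosome Y genes were set aside, and 12210 of these reached the minimum level and were compared. The cells were primary epidermal keratinocytes separated from newborn C57BL/6 mice and grown for 48 h in 154CF medium with the HKGS supplement. The Il17rc KO cells and the Il17rd KO cells were both treated with IL-17A at 100 ng/mL for 8 h. A wild type (WT) library with the same IL-17A treatment and an untreated WT library gave the levels beside which each knockout was placed. The targeted alleles, the number and sex of the mice and any pooling were not stated in the labels, and untreated knockout cells were not analysed here.

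IL-17A is a cytokine of T cells that acts on epithelial cells through a receptor built from IL-17RA and IL-17RC, which bind the adaptor Act1 through their SEFIR domains. IL-17RD, also called Sef, belongs to the same receptor family and is best known as an inhibitor of fibroblast growth factor and ERK signalling. In keratinocytes IL-17A is known for raising neutrophil-attracting chemokines, antimicrobial proteins and a small set of regulators that stabilise or degrade cytokine mRNA. The direct comparison shows which transcripts differed between cells that lacked one or the other of these receptor chains.

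The 4 libraries held 19711866 to 19904695 counts, so depth was nearly equal. Each ratio was formed from counts scaled by TMM, a between-library scaling, and carries a 95% exact interval that covers counting error only. Reads were not stated to carry molecular identifiers, so reads copied by PCR are not independent molecules. With 1 library for each genotype there is no replicate check and no p-value, and a difference between mice cannot be told apart from a difference between genotypes. A gene is called higher or lower below where the ratio reached 2-fold and the interval excluded 1. Log2 ratios have a prior count of 2 added and are Il17rc KO over Il17rd KO. The libraries also differed in sex-linked transcripts. Ddx3y, on chromosome Y, had 749 counts in the Il17rc KO library and 2 in the Il17rd KO library, against 654 in untreated WT and 233 in IL-17A WT. Xist, the RNA of the inactive X chromosome, had 2668 and 8513 counts in the knockouts, against 2420 and 4750 in the WT libraries. The Il17rd KO library therefore had almost no Y-linked RNA, whereas the other 3 held both kinds. The part of this in the differences below was not tested.

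The targeted genes were low in the libraries that carry their names. Il17rc (chr6:113471427-113483140, plus strand) had 439 counts in Il17rc KO and 1718 in Il17rd KO, against 2729 in untreated WT and 1152 in IL-17A WT. It was 3.82-fold lower in Il17rc KO (3.44 to 4.25), so reads of the gene were reduced and not absent. Il17rd (chr14:27038941-27107286, plus strand) had 5 counts in Il17rd KO and 150 in Il17rc KO, against 252 and 265 in the WT libraries. Its level was 30.7-fold higher in Il17rc KO (12.9 to 96.0). Il17ra, the receptor chain that both knockouts keep, had 577 counts in Il17rc KO and 558 in Il17rd KO, a ratio of 1.06 (0.941 to 1.19). The adaptor gene Traf3ip2, which encodes Act1, had 917 and 1079 counts, and Traf6, the ubiquitin ligase downstream of it, 1136 and 1176, with ratios inside 2-fold. Among 31 receptor and signalling genes, Il17rd was the 1 called higher and Il17rc the 1 called lower, beside 1.16% and 2.57% of all genes. Both are targeted genes. Positions are in GRCm38, the build of mm10.

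Across all genes the knockouts were alike in most transcripts. Of 12210 genes, 142 were higher in Il17rc KO (1.16%) and 314 were lower (2.57%), together 456 (3.73%). The median log2 ratio was 0.01, with quartiles at -0.19 and 0.19. At 4-fold or more, 18 genes were higher and 56 lower, and at 8-fold or more 6 were higher and 15 lower. The interval excluded 1 for 6416 genes (52.5%), most of them differing by less than 2-fold. The whole interval lay past 2-fold for 51 higher and 120 lower genes, so counting error left the size of many called ratios open. The plot of levels in the knockouts places the named genes among all genes.

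**Figure D1:**
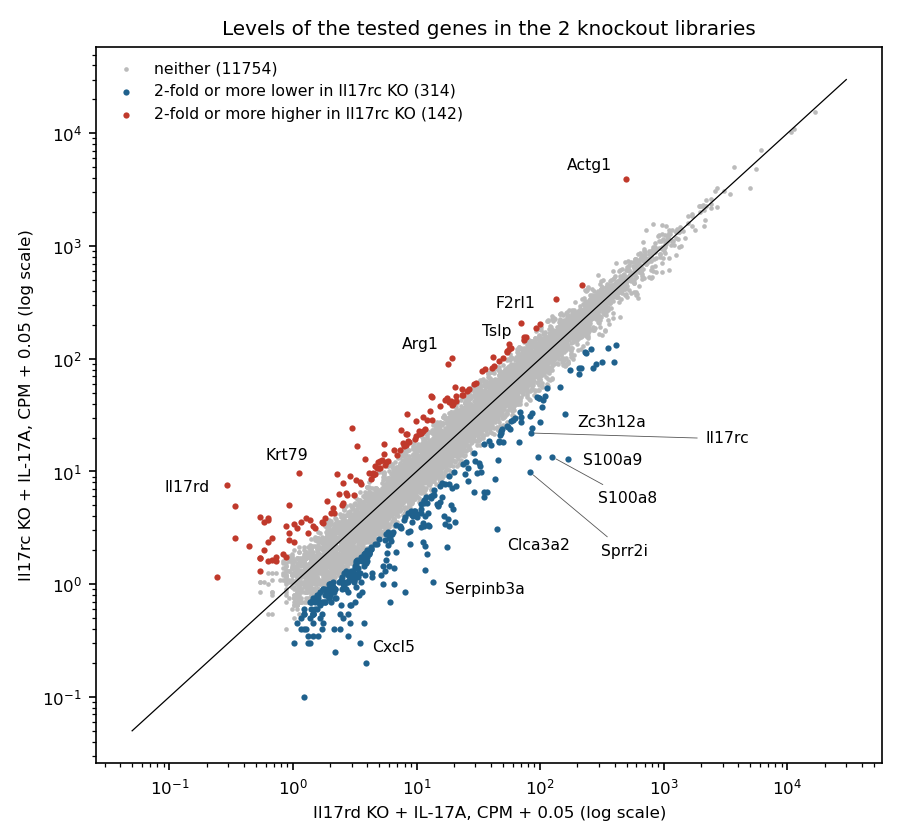
Level of each of the 12210 tested genes in the Il17rd KO library (horizontal) and the Il17rc KO library (vertical), both after IL-17A, in CPM (counts scaled to a common library size) plus 0.05 on log axes. Each point is 1 gene, the line marks equal levels, and the 314 genes lower in Il17rc KO, such as S100a8, S100a9 and Cxcl5, lie below it while the 142 higher genes, such as Arg1 and F2rl1, lie above it.

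The clearest group difference lay in antimicrobial and acute phase proteins, which were lower in Il17rc KO. Of 13 tested members 9 were lower and 0 higher, beside 2.57% and 1.16% of all genes, and the list's median log2 ratio was -2.31 against 0.01 over all genes. S100a9 and S100a8 encode the subunits of calprotectin, a metal-binding antimicrobial protein complex of inflamed skin. S100a9 had 258 counts in Il17rc KO and 3470 in Il17rd KO, against 103 in untreated WT and 770 in IL-17A WT, and was 13.1-fold lower in Il17rc KO (11.6 to 15). S100a8 had 269 and 2575 counts, against 75 and 653, and was 9.35-fold lower (8.24 to 10.6). For both subunits Il17rd KO was the highest of the 4 libraries and Il17rc KO lay between untreated WT and IL-17A WT. In length-corrected units, which allow genes to be compared, S100a9 stood at 24.6 FPKM in Il17rc KO and 323 in Il17rd KO, and S100a8 at 19.3 and 180.

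The other called members of the list were less abundant. S100a7a, a mouse relative of psoriasin, had 8 counts in Il17rc KO and 76 in Il17rd KO, against 23 in untreated WT and 66 in IL-17A WT, and was 9.28-fold lower (4.48 to 22.3). Chil1, which encodes a chitinase-like secreted protein, had 16 and 165 counts against 20 and 23, 10.1-fold lower (6.02 to 18.0). Lcn2, the siderophore-binding lipocalin that withholds iron from bacteria, had 19 and 135 counts against 85 and 54, 6.94-fold lower (4.27 to 11.9). In all 3 genes Il17rd KO was the highest library and Il17rc KO the lowest, by small margins in places. Chil1 in Il17rc KO was near both WT counts, and S100a7a in Il17rd KO was near IL-17A WT. C3, the central complement protein, had 130 counts in Il17rc KO and 765 in Il17rd KO against 445 and 1706, and was 5.75-fold lower (4.76 to 6.97). C3 was highest in IL-17A WT, and Il17rc KO was below untreated WT. The acute phase copper carrier Cp had 10 and 48 counts, and Lyz2 and Saa3, lysozyme and serum amyloid A genes with near-identical copies in the genome, had 67 and 348 and 7 and 43.

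The 4 members inside 2-fold were the defensin genes Defb1 and Defb14 and the protease inhibitor genes Slpi and Wfdc2. Slpi had 904 counts in Il17rc KO and 628 in Il17rd KO, a ratio of 1.47 (1.33 to 1.63), against 223 and 1696 in the WT libraries. Defb14 had 207 and 203 counts, against 42 and 147. Antimicrobial genes therefore did not move as 1 block between the knockouts.

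Markers of immune cells were lower in Il17rc KO as well. Of 18 immune markers 6 were tested, and 3 were lower and 0 higher, beside 2.57% and 1.16% of all genes. The 3 were Lyz2 with 67 and 348 counts, Laptm5 with 7 and 34, and Csf1r, the macrophage growth factor receptor, with 17 and 44. The summed level of the 6 tested markers was 34.5 CPM in Il17rc KO and 56.3 in Il17rd KO, against 85 in untreated WT and 42.2 in IL-17A WT. A list of 18 macrophage genes, chosen after values were seen, holds the 3 lower genes too, and 15 of its members were tested. Of these 15 genes 12 were lower and 0 higher, beside the same shares of all genes, at a median log2 ratio of -1.52. Other immune markers such as Ptprc were not among the tested genes. In bulk RNA fewer cells of a type and less RNA per cell cannot be told apart. The part of immune cells in the antimicrobial differences was not tested.

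Cxcl1, Cxcl2, Cxcl5 and Csf3, which were high in IL-17A WT, were low in both knockouts, and few chemokines and colony-stimulating factors differed between them. Of 13 tested members 2 were lower in Il17rc KO and 1 higher, beside 2.57% and 1.16% of all genes, with a median of -0.25. Cxcl5, a neutrophil chemokine, had 5 counts in Il17rc KO and 70 in Il17rd KO, against 12 in untreated WT and 951 in IL-17A WT, and was 13.7-fold lower (5.59 to 43.4). The Il17rc KO count was no higher than that of untreated WT, the Il17rd KO count lay above it, and both were far under IL-17A WT. Cx3cl1, the membrane-bound chemokine fractalkine, had 15 and 69 counts against 58 and 162, 4.49-fold lower (2.54 to 8.45). Cxcl12, which acts on CXCR4-bearing cells, went the other way, with 158 counts in Il17rc KO and 51 in Il17rd KO against 44 and 99, 3.17-fold higher (2.30 to 4.44). The more abundant neutrophil factors did not reach 2-fold. Cxcl1 had 286 and 468 counts, against 92 in untreated WT and 4443 in IL-17A WT, and was 1.60-fold lower (1.38 to 1.86). Csf3, the granulocyte growth factor, had 31 and 53 counts, against 17 and 610, 1.67-fold lower (1.05 to 2.69). Cxcl2, with 73 and 82 counts against 22 and 426, had an interval that included 1.

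Interleukins of the epidermis were lower in Il17rc KO for 3 of 15 tested genes and higher for 1, beside 2.57% and 1.16% of all genes, with a median of -0.69. Il1f6, which encodes IL-36 alpha, an IL-1 family alarm cytokine of psoriatic skin, had 26 counts in Il17rc KO and 240 in Il17rd KO. Its WT counts were 38 without and 171 with IL-17A, and it was 9.01-fold lower in Il17rc KO (6.00 to 14.1). Il17rd KO thus held the highest Il1f6 level and Il17rc KO the lowest. Il1rn, the IL-1 receptor antagonist, had 922 and 1951 counts, against 1488 and 923, 2.07-fold lower (1.91 to 2.24). Il33, a nuclear alarmin, had 290 and 595 counts, against 214 and 49, 2.0-fold lower (1.74 to 2.31), at the edge of the rule. The neighbouring family members Il1f9, Il1f8 and Il1f5 were 1.75-fold, 1.71-fold and 1.60-fold lower, short of 2-fold.

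Tslp, a keratinocyte cytokine that acts on dendritic cells, was the 1 interleukin-list gene higher in Il17rc KO. It had 2350 counts there and 1115 in Il17rd KO, against 777 in untreated WT and 865 in IL-17A WT, and was 2.16-fold higher (2.01 to 2.32). Il17rc KO was the highest of the 4 libraries and the other 3 lay close together. Il1a, strongly higher in IL-17A WT, had 275 counts in Il17rc KO and 501 in Il17rd KO, 1.78-fold lower (1.53 to 2.07), against 246 and 6135. Il24 had 46 and 40 counts against 2 and 333, with an interval that included 1.

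Among 27 feedback regulators and IL-17 target regulators 3 were lower in Il17rc KO and 0 higher, beside 2.57% and 1.16% of all genes, with a median of -0.24. Zc3h12a (chr4:125118423-125127840, minus strand) encodes Regnase-1, an endonuclease that degrades cytokine mRNA. It had 646 counts in Il17rc KO and 3274 in Il17rd KO, against 1095 in untreated WT and 3322 in IL-17A WT, and was 4.95-fold lower (4.55 to 5.39). Nfkbiz (chr16:55811375-55838899, minus strand) encodes IkB-zeta, a nuclear cofactor needed for many IL-17A target genes. Its counts were 1659 and 4209, against 1257 and 4338, 2.48-fold lower (2.34 to 2.62). Tnfaip2 had 192 and 633 counts, against 275 and 914, 3.22-fold lower (2.73 to 3.80). For Zc3h12a and Nfkbiz the Il17rd KO level was close to IL-17A WT. The Il17rc KO level was under untreated WT for Zc3h12a and Tnfaip2 and above it for Nfkbiz. The remaining regulators were inside the rule. The inhibitor gene Nfkbia was 1.5-fold lower (1.44 to 1.57), and Tnfaip3, the deubiquitinase A20, was 1.37-fold higher (1.26 to 1.49).

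**Figure D2:**
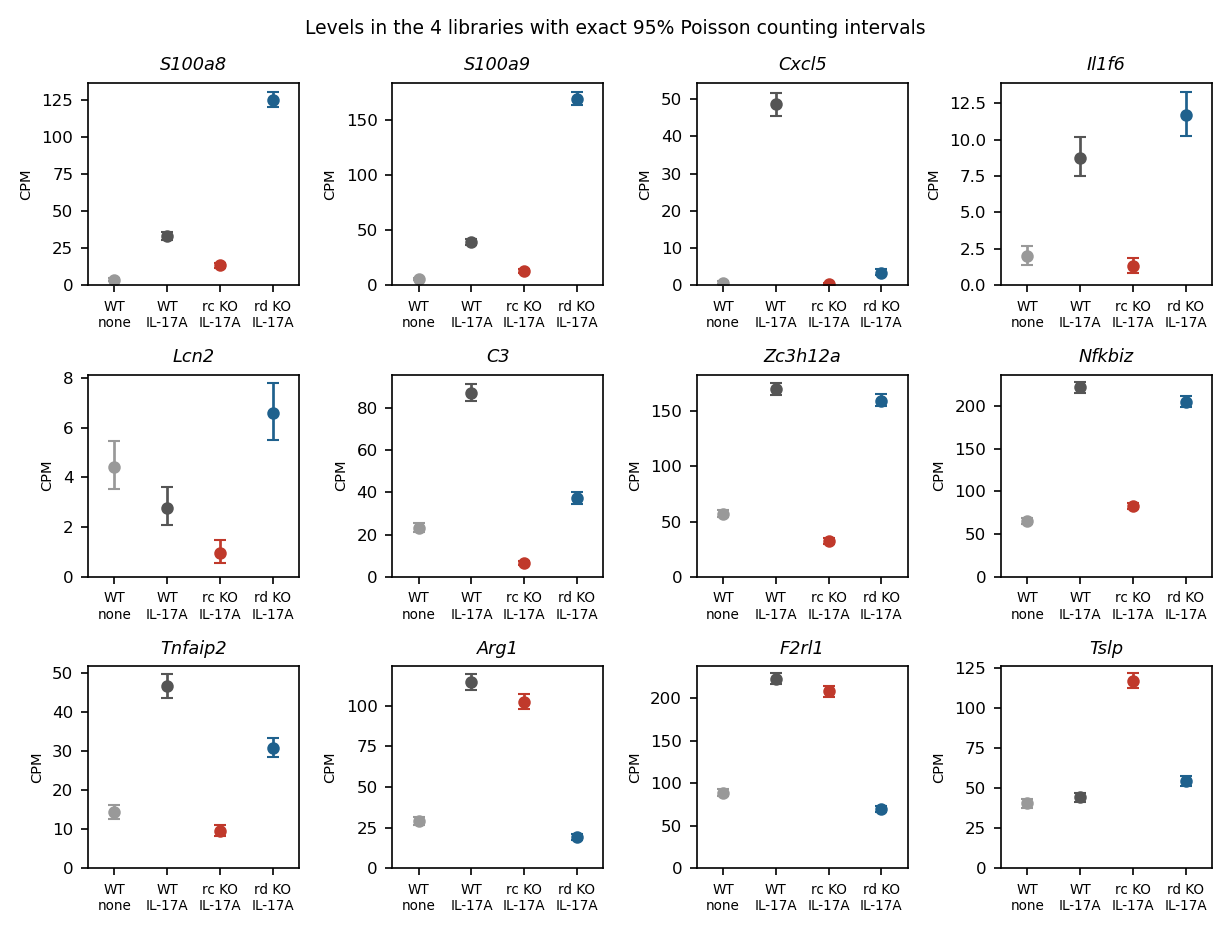
Level in CPM of 12 genes in the 4 libraries (untreated WT, IL-17A WT, Il17rc KO with IL-17A and Il17rd KO with IL-17A), 1 library each, with exact 95% Poisson counting intervals as bars and a separate vertical scale from 0 in each panel. S100a8, S100a9, Il1f6 and Lcn2 are highest in Il17rd KO, Zc3h12a and Nfkbiz are about as high there as in IL-17A WT, and Arg1 and F2rl1 are high in Il17rc KO and IL-17A WT.

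Small proline-rich (SPRR) proteins are cross-linked into the envelope of dying keratinocytes. Of 12 tested Sprr genes 5 were lower in Il17rc KO and 0 higher, beside 2.57% and 1.16% of all genes, with a median of -0.62, and all 5 belong to the Sprr2 cluster on chromosome 3. Sprr2i had 196 counts in Il17rc KO and 1704 in Il17rd KO, against 211 in untreated WT and 233 in IL-17A WT, 8.49-fold lower (7.32 to 9.89). Sprr2f had 42 and 361 counts, against 15 and 37, 8.39-fold lower (6.09 to 11.8). Sprr2b had 270 and 1963 counts, against 143 and 74, 7.10-fold lower (6.25 to 8.09). In these 3 genes Il17rd KO stood alone above the other libraries. Sprr2d, the most abundant of the 5 by FPKM, had 1889 and 8070 counts, against 1162 and 930, 4.17-fold lower (3.97 to 4.39). Sprr2e had 367 and 1375 counts, against 73 and 236, 3.66-fold lower (3.26 to 4.12). These are short related transcripts, and reads may be shared between them below the similarity searched.

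Other members of the same cluster did not differ by 2-fold. Sprr2h, with 6294 counts in Il17rc KO and 7597 in Il17rd KO, was 1.18-fold lower (1.14 to 1.22), against 6677 and 2941 in the WT libraries. Sprr2k had 49 and 59 counts, against 17 and 190, and its interval included 1. Sprr2a3, which has a near-identical copy, was 1.89-fold lower (1.72 to 2.09). The abundant Sprr1a and Sprr1b were 1.37-fold (1.34 to 1.40) and 1.14-fold (1.11 to 1.17) higher in Il17rc KO.

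The sequences just upstream of these genes are shown because the cluster divided between members that differed and members that did not. Each is the 250 bases before the gene's RefSeq start in GRCm38.p6, written 5′ to 3′ along the gene's plus strand, with matches to TGANTCA, an AP-1-type motif that reads the same on both strands, in capitals. Sprr2i at chr3:92407741-92407990 and Sprr2d at chr3:92338890-92339139 were lower in Il17rc KO, whereas Sprr2h at chr3:92385435-92385684 and Sprr2k at chr3:92432332-92432581 were inside 2-fold.
Sprr2i: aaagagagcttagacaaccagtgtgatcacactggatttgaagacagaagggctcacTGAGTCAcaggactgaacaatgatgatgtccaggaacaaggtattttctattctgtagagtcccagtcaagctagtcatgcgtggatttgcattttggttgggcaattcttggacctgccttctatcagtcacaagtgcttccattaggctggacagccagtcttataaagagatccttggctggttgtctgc
Sprr2d: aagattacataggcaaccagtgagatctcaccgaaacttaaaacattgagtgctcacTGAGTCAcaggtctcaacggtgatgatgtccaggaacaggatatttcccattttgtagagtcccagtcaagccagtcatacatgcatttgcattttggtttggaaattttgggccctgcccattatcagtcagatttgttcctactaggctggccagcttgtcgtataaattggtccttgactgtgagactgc
Sprr2h: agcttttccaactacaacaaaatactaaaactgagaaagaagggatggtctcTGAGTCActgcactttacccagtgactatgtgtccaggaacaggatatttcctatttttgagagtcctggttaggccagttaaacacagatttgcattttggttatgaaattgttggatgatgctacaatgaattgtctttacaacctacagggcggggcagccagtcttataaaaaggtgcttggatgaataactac
Sprr2k: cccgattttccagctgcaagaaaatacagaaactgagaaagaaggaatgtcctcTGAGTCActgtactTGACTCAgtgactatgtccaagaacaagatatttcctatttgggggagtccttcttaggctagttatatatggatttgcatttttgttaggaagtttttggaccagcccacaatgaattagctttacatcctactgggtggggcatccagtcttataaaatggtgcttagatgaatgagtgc

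All 7 Sprr2 windows in the RefSeq table, those of Sprr2b, Sprr2d, Sprr2e, Sprr2f, Sprr2h, Sprr2i and Sprr2k, held the motif, and 6.75% of all 32851 windows of that length did. The first match began 193 bases before the start in Sprr2i and Sprr2d, 198 in Sprr2h and 196 in Sprr2k, and Sprr2k held another match. The motif was thus in windows of members that differed and of members that did not. The window of Sprr2b runs into the gene body as GENCODE M21 places it, so it is only partly upstream sequence there. Over whole windows Sprr2d and Sprr2e were 89.3% identical and Sprr2h and Sprr2k 80.6%. Sprr2h and Sprr2i shared 64.6% and Sprr2d and Sprr2k 67.0%, and Sprr2b was 63.9% to 65.8% identical to the others. A match or an identity describes these letters and shows no binding.

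The window upstream of S100a9 at chr3:90695722-90695971, minus strand, is shown because this gene had the highest lower bound of the fold among genes lower in Il17rc KO. Capitals mark a match to TTGCNNAA, a C/EBP-type motif searched on both strands of the S100a8, S100a9 and Lcn2 windows.
S100a9: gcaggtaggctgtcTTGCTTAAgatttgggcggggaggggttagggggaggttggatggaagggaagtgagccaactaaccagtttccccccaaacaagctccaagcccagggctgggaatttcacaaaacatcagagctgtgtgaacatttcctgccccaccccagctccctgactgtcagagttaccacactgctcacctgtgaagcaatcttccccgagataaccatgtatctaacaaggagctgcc

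The match lay 236 to 229 bases before the S100a9 start, and Lcn2 held 1 at 216 to 209 bases. The S100a8 window held none, which says only that these letters are not in it. The S100a8 and Lcn2 windows run into the gene bodies as GENCODE M21 places them, and 9.56% of all 32851 windows held the motif. Matches were marked for 1 motif in each window shown, so unmarked letters may still match the other motif.

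Late cornified envelope genes encode small proteins cross-linked late in the envelope. Of 22 tested members 6 were lower in Il17rc KO and 1 higher, beside 2.57% and 1.16% of all genes, with a median of -0.68. Lce3a had 46 counts in Il17rc KO and 230 in Il17rd KO, against 17 in untreated WT and 11 in IL-17A WT, 4.88-fold lower (3.54 to 6.85). Lce3b had 101 and 388 counts, against 28 and 9, 3.75-fold lower (3.01 to 4.72). Both were highest in Il17rd KO, and both have near-identical copies. Lce1m went the other way, with 335 counts in Il17rc KO and 67 in Il17rd KO, against 326 and 44, 5.12-fold higher (3.93 to 6.76). Il17rc KO was at the untreated WT level of Lce1m and Il17rd KO near the IL-17A WT level. Crnn, which encodes cornulin, a nearby envelope protein, had 78 and 10 counts, against 63 and 37, and was 7.99-fold higher (4.12 to 17.3).

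Epidermal serpins and cystatins, which inhibit proteases in the outer epidermis, were lower in Il17rc KO for 6 of 16 tested genes and higher for 1, beside 2.57% and 1.16% of all genes, with a median of -0.47. Serpinb3a, a relative of the human squamous cell carcinoma antigens, had 20 counts in Il17rc KO and 277 in Il17rd KO, against 3 in untreated WT and 23 in IL-17A WT, 13.5-fold lower (8.59 to 22.5). Serpinb3b had 106 and 315 counts, against 30 and 53, 2.90-fold lower (2.32 to 3.65). The stefin gene Stfa3 had 1459 and 4209 counts, against 4053 and 1317, 2.82-fold lower (2.65 to 2.99), and the cystatin A gene Csta1 had 753 and 2112, against 693 and 444, 2.74-fold lower (2.52 to 2.98). Il17rd KO was the highest library for Serpinb3a, Serpinb3b and Csta1, and Stfa3 was about as high in untreated WT as in Il17rd KO. Stfa1 and BC100530, at 3.57-fold (3.22 to 3.95) and 2.58-fold lower (2.41 to 2.77), have near-identical copies. Serpinb7 was the higher one, with 127 and 54 counts against 130 and 12, 2.41-fold (1.74 to 3.38). Clca3a2, a calcium-activated chloride channel accessory gene with a near-identical copy, had 61 counts in Il17rc KO and 921 in Il17rd KO, against 1116 and 213, 14.7-fold lower (11.4 to 19.4).

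**Figure D3:**
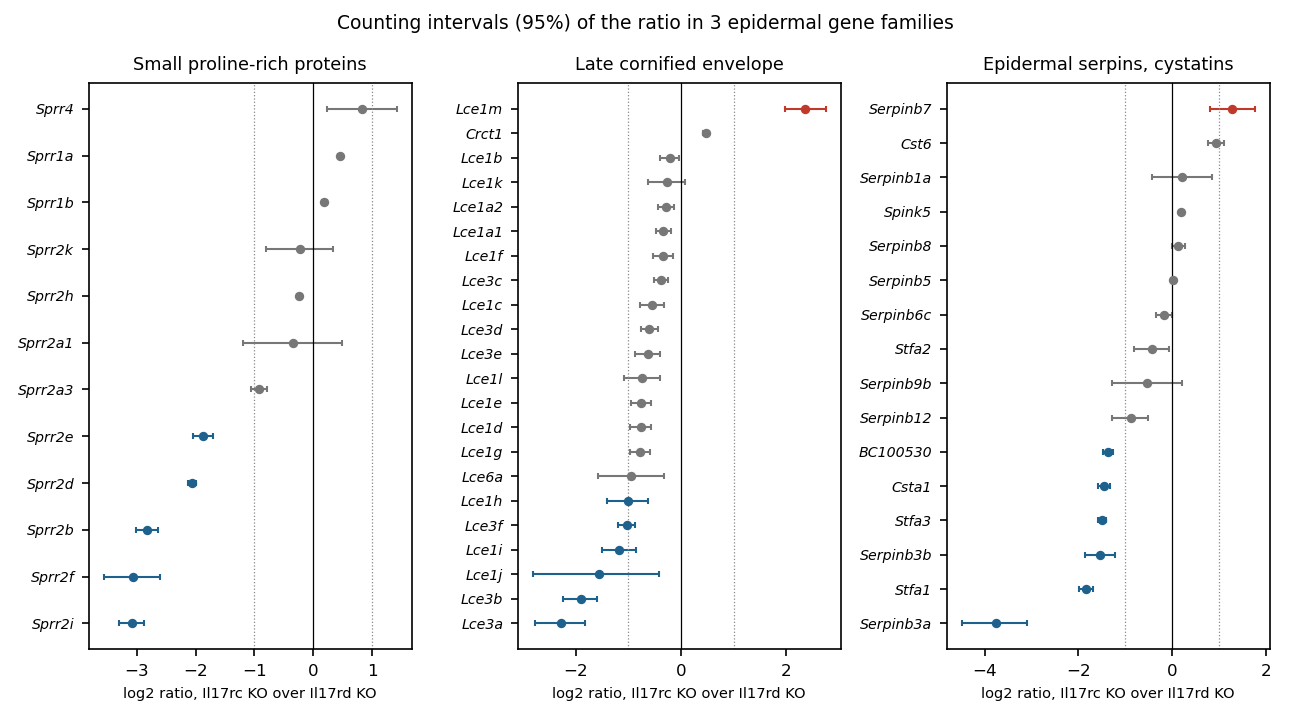
Log2 ratio of Il17rc KO over Il17rd KO (horizontal) with 95% counting intervals for each tested member of the small proline-rich, late cornified envelope, and serpin and cystatin lists, without prior count; dotted lines mark 2-fold and colours mark genes called lower (blue) or higher (red). The 5 called Sprr2 genes stand apart from Sprr2h and Sprr2k, and Lce1m and Serpinb7 lie on the other side from the rest of the called members.

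Spinous and granular layer genes, the main programme of keratinocyte differentiation, showed no common direction. The median of 35 tested members was -0.01 beside 0.01 over all genes. In Il17rc KO 2 were lower and 0 higher, beside 2.57% and 1.16% of all genes. The 2 were Padi3, a peptidylarginine deiminase that modifies keratins and filaggrin, with 65 and 236 counts against 318 and 1430, and Tgm3, an envelope cross-linking transglutaminase, with 124 and 286 counts against 255 and 33. Krt1 and Krt10, the spinous layer keratins, were 1.78-fold (1.74 to 1.82) and 1.60-fold (1.52 to 1.69) lower in Il17rc KO, with 12388 and 22536 counts for Krt1. In IL-17A WT Krt1 had 756 counts and in untreated WT 48645, so both knockouts lay between the WT levels. Flg, the filaggrin gene, was 1.62-fold higher (1.53 to 1.72) and Lor, the loricrin gene, 1.16-fold higher (1.12 to 1.21). The 27 barrier lipid genes and the 10 Notch pathway genes had no called member. Keratinocyte identity was clear in both libraries, with Krt5 at 311820 and 346506 counts and Krt14 at 217234 and 234728.

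Basal and stress keratin genes were also mostly alike. Of 20 basal and adhesion genes 1 was higher and 1 lower, beside 1.16% and 2.57% of all genes. The higher gene was Dlk2, an epidermal growth factor-like homologue of the Notch ligands, with 427 and 167 counts. The lower gene was the transcription factor gene Sox11, with 65 and 374 counts against 165 and 733. Krt79, a keratin of the hair follicle infundibulum and sebaceous duct, had 195 counts in Il17rc KO and 22 in Il17rd KO, against 58 and 59, and was 9.08-fold higher (5.83 to 14.8). Krt7, a simple epithelial keratin, had 625 and 1695 counts, against 2336 and 3445, 2.65-fold lower (2.41 to 2.91). Krt79 was thus highest in Il17rc KO and Krt7 lowest there. The other 8 tested stress and simple keratins, the abundant Krt6a, Krt16 and Krt17 among them, were inside 2-fold.

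Among genes higher in Il17rc KO, Arg1 and F2rl1 had the levels of IL-17A WT in Il17rc KO and of untreated WT, or lower, in Il17rd KO. Arg1 (chr10:24915221-24927484, minus strand) encodes arginase 1, which splits arginine into ornithine and urea. It had 2053 counts in Il17rc KO and 397 in Il17rd KO, against 561 in untreated WT and 2239 in IL-17A WT, 5.30-fold higher (4.75 to 5.91). F2rl1 (chr13:95511732-95525227, minus strand) encodes protease-activated receptor PAR2. It had 4171 and 1431 counts, against 1699 and 4362, 2.99-fold higher (2.81 to 3.17). Trabd2b, which encodes a membrane metalloprotease that cleaves Wnt proteins, was likewise high in Il17rc KO and IL-17A WT, with 649 and 171 counts against 76 and 426, 3.89-fold higher (3.28 to 4.63). For Zc3h12a it was Il17rd KO, and not Il17rc KO, that stood close to IL-17A WT.

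Several other genes chosen for the distance of their interval from 1 were higher in Il17rc KO than in any other library. Egr2, an immediate early zinc finger factor, had 77 counts in Il17rc KO and 12 in Il17rd KO, against 38 and 13, 6.57-fold higher (3.55 to 13.3). Id4, an inhibitor of basic helix-loop-helix factors, had 100 and 18 counts, against 34 and 13, 5.69-fold higher (3.42 to 9.99). Pappa, a metalloprotease that cleaves insulin-like growth factor binding proteins, had 71 and 11 counts, against 8 and 46, 6.61-fold higher (3.48 to 13.8). These 3 genes are at low levels, and their intervals are wide. M1ap, a meiosis gene, had 50 and 6 counts, against 4 and 33, 8.54-fold higher (3.66 to 24.4).

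ERK feedback genes and ETS factors are the known outputs of the pathway that IL-17RD restrains. Of 18 tested members 3 were higher in Il17rc KO and 0 lower, beside 1.16% and 2.57% of all genes, with a median of 0.19. The summed level of the list ran the other way, at 1618 CPM in Il17rc KO and 1744 in Il17rd KO. Etv4, an ETS factor, had 280 counts in Il17rc KO and 142 in Il17rd KO, against 46 in untreated WT and 1143 in IL-17A WT, 2.02-fold higher (1.64 to 2.49). Spry4 and Spry1 encode Sprouty inhibitors of receptor tyrosine kinase signalling. Spry4 had 62 and 30 counts, against 39 and 159, 2.12-fold higher (1.35 to 3.39), and Spry1 had 171 and 87, against 130 and 195, 2.01-fold higher (1.55 to 2.64). All 3 were lower in both knockouts than in IL-17A WT, with Spry1 in Il17rc KO lower by a small margin. Spry1 and Etv4 sat at the edge of 2-fold, and 1 gene of the list remained called when counts were scaled by library totals. Dusp6, a phosphatase of ERK, was 1.55-fold higher (1.33 to 1.8) and Etv5 1.26-fold higher (0.984 to 1.61). Of 21 AP-1 and EGR factors Egr2 was the 1 called, higher, with Fosl1 at 1.95-fold (1.60 to 2.37) and a list median of 0.26. The 13 EGFR ligand and receptor genes had no called member.

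Cell cycle genes mostly had higher levels in Il17rc KO, at ratios that for most were short of 2-fold. Of 30 mitotic genes 29 had log2 ratios above 0 and the median was 0.88, beside 52% above 0 and a median of 0.01 over all genes. Of 30 DNA replication and S phase genes all had log2 ratios above 0 and the median was 0.67. By the 2-fold rule 6 mitotic and 2 S phase genes were higher and 0 lower, beside 1.16% and 2.57% of all genes. Under the 3 other scalings 3 to 5 of the mitotic genes kept 2-fold. At 1.5-fold 26 mitotic and 20 S phase genes were higher and 0 lower, where 4.97% of all genes were higher and 6.81% lower.

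Aurka, a spindle kinase, had 2310 counts in Il17rc KO and 1105 in Il17rd KO, against 324 in untreated WT and 1089 in IL-17A WT, 2.14-fold higher (1.99 to 2.30). Plk1, a mitotic kinase, had 3146 and 1522 counts, against 409 and 1246, 2.12-fold higher (1.99 to 2.25). Ccna2, the cyclin of S phase and mitotic entry, had 4046 and 2046 counts, against 507 and 1666, 2.03-fold higher (1.92 to 2.14). For these genes Il17rd KO was near IL-17A WT and Il17rc KO above both. E2f2, a transcription factor of the G1 to S transition, had a different order, with 909 and 275 counts against 342 and 70, 3.39-fold higher (2.96 to 3.89). The replication genes Mcm2 and Pcna were 1.59-fold (1.5 to 1.7) and 1.3-fold (1.24 to 1.36) higher. Pttg1, the securin gene, was the 1 mitotic gene below 0, 1.35-fold lower (1.16 to 1.58), and the interval of Ccnb1, which has a near-identical copy, included 1.

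**Figure D4:**
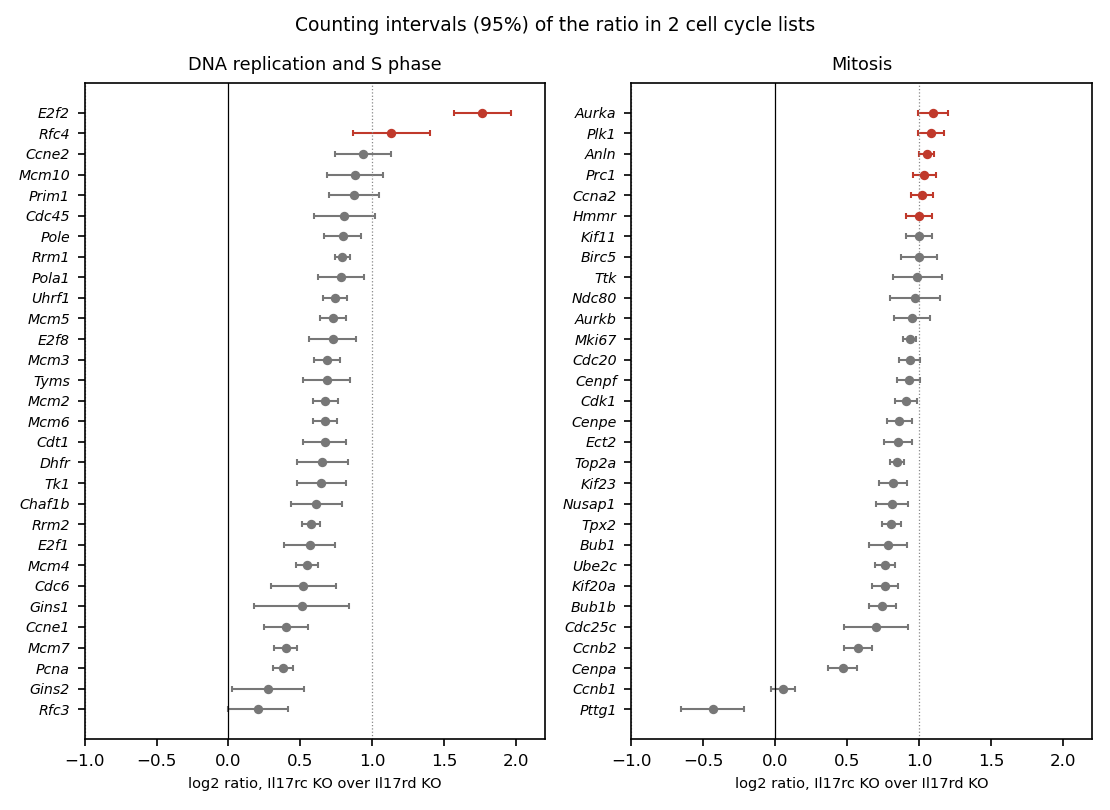
Log2 ratio of Il17rc KO over Il17rd KO (horizontal) with 95% counting intervals for 30 DNA replication and S phase genes and 30 mitotic genes, without prior count; the dotted line marks 2-fold and red marks the called genes. All points but Pttg1 lie above 0, and 6 mitotic genes and 2 S phase genes pass 2-fold.

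Sterol and fatty acid synthesis genes also lay on 1 side, at smaller ratios. All 24 tested members had log2 ratios above 0, from 0.02 for Srebf2 to 0.58 for Lss, with a median of 0.32 and none at 2-fold. Under library totals Srebf2 and Acly fell to or under 0, leaving 22 above it. The glycolysis and hypoxia, heat shock and unfolded protein, and p53 lists had no called member of 22, 22 and 19 tested. Of 19 interferon and antigen presentation genes 1 was lower and 0 higher, beside 2.57% and 1.16% of all genes. The lower gene was Ifit1, with 13 and 28 counts. Of 19 NRF2 targets 1 was lower and 1 higher, beside the same shares. Osgin1 was 2.36-fold higher (1.92 to 2.92), and Slc7a11, the cystine transporter gene, 2.2-fold lower (1.96 to 2.46).

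Secreted proteases went both ways. Of 31 tested members of the protease, inhibitor and urokinase list 5 were lower in Il17rc KO and 3 higher, beside 2.57% and 1.16% of all genes, with a median of -0.04. Mmp13, a collagenase, had 71 counts in Il17rc KO and 423 in Il17rd KO, against 307 in untreated WT and 564 in IL-17A WT, 5.82-fold lower (4.51 to 7.59). Mmp10, a stromelysin, had 63 and 149 counts, against 90 and 256, 2.31-fold lower (1.71 to 3.15), and the gelatinase gene Mmp9 had 57 and 119, against 21 and 1314, 2.04-fold lower (1.47 to 2.85). Mmp13 and Mmp10 were lowest in Il17rc KO, whereas Mmp9 was far below IL-17A WT in both knockouts. The aggrecanase genes Adamts4 and Adamts5 were each 2.24-fold lower, with intervals of 1.72 to 2.94 and 1.63 to 3.12. On the other side were F2rl1, Adamts1, at 2.01-fold (1.89 to 2.14), and Klk6, a kallikrein of the outer epidermis, with 2083 and 858 counts against 1441 and 731, 2.49-fold higher (2.30 to 2.70).

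Of 29 tested genes of the Wnt, BMP and TGF-beta pathways 5 were lower in Il17rc KO and 0 higher, beside 2.57% and 1.16% of all genes, with a median of -0.17. Wnt10b had 370 counts in Il17rc KO and 954 in Il17rd KO, against 540 in untreated WT and 437 in IL-17A WT, 2.52-fold lower (2.23 to 2.85). Wnt7a had 216 and 537 counts, against 676 and 1743, 2.43-fold lower (2.07 to 2.86). Bmp4 had 28 and 109 counts, against 62 and 28, 3.80-fold lower (2.49 to 5.98). Wnt3a and Tgfb2, at 17 and 44 and 34 and 80 counts, were the others. These 5 genes encode secreted ligands, and the other 24 tested pathway genes were not called. Of 5 tested Skint genes, which encode keratinocyte surface proteins of the butyrophilin-like kind, Skint7 was lower, with 45 and 182 counts.

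**Figure D5:**
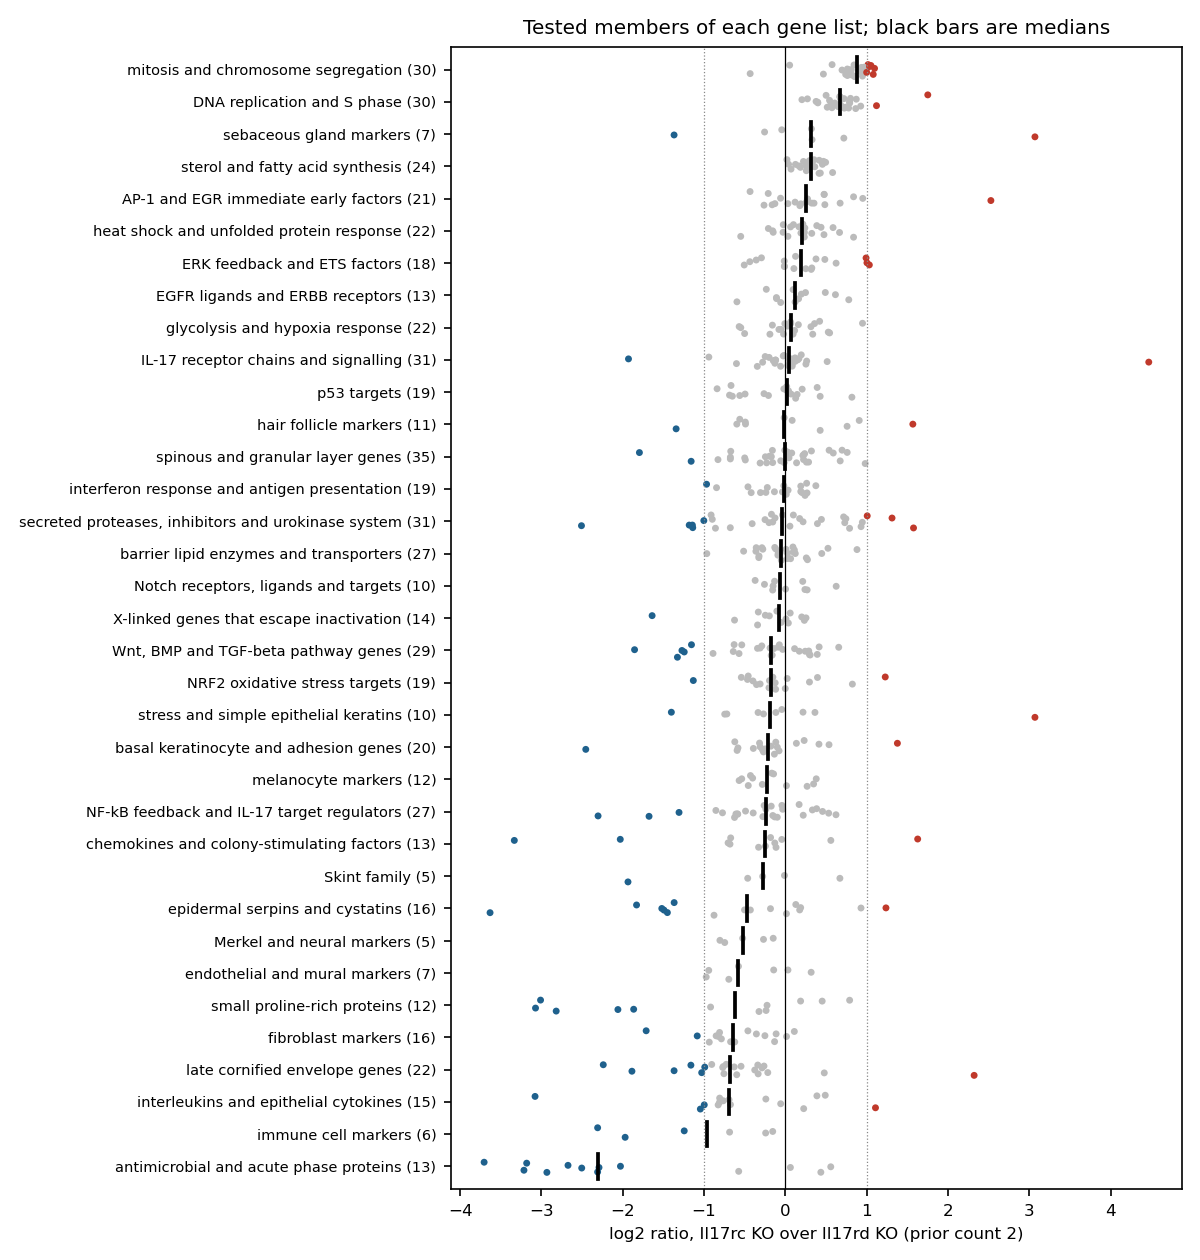
Log2 ratio of Il17rc KO over Il17rd KO (horizontal, prior count 2) for every tested member of the gene and marker lists, 1 row of points for each list with the number tested in brackets; black bars are medians, dotted lines mark 2-fold and blue and red points are called lower and higher. Antimicrobial and acute phase proteins have the lowest median, -2.31, and mitotic genes the highest, 0.88.

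Further genes with intervals far from 1 were lower in Il17rc KO outside these lists. Fam20a, a secretory pathway pseudokinase gene, had 13 counts in Il17rc KO and 124 in Il17rd KO, against 95 in untreated WT and 167 in IL-17A WT, 9.31-fold lower (5.25 to 18.0). Rassf10, a RAS-association domain gene, had 118 and 719 counts, against 336 and 572, 5.95-fold lower (4.89 to 7.29). In both genes Il17rc KO was the lowest of the 4 libraries.

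Actg1 and Hmgb1 had large ratios and are uncertain. Actg1, cytoplasmic gamma actin, had 79635 counts in Il17rc KO and 10090 in Il17rd KO, against 104581 and 106257, 8.08-fold higher (7.92 to 8.25), and has 6 near-identical copies in the genome. Actb, the beta actin gene, had 51299 and 45033 counts, 1.17-fold higher (1.15 to 1.18). The 4 processed copies of Actg1 among the deposited rows together had 838 and 827 counts. Hmgb1, a chromatin protein gene with 38 near-identical copies, had 1795 and 367 counts, against 178 and 272, 5.01-fold higher (4.47 to 5.62). Dynlt1c, with 4 such copies, was 6.23-fold higher (3.36 to 12.6). How reads were divided between copies was not tested.

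Markers of other cell types were measured in the same libraries. Of 16 tested fibroblast markers 2 were lower and 0 higher, beside 2.57% and 1.16% of all genes, with a median of -0.65. The 2 were Postn and Twist2, with 18 and 65 and 16 and 37 counts. At 1.5-fold 9 of the 16 markers were lower and 0 higher, beside 6.81% and 4.97% of all genes, and 14 had log2 ratios below 0. Their summed level was 587 CPM in Il17rc KO and 912 in Il17rd KO, with Fn1, the fibronectin gene, at 4680 and 9171 counts. The 12 melanocyte, 7 endothelial and mural and 5 Merkel and neural markers had no called member, with medians of -0.23, -0.58 and -0.52. Dct, a melanocyte enzyme gene, had 12304 and 12484 counts, so melanocyte transcripts were present in both libraries. Of the 12 melanocyte markers 4 had log2 ratios above 0 and 8 below. The summed level of these markers was 2568 CPM in Il17rc KO and 2920 in Il17rd KO. Of 11 hair follicle markers Lgr5 was higher, with 56 and 18 counts, and Krt75 lower, with 85 and 224. Of 7 sebaceous markers Krt79 was higher and Mgst1 lower, with 189 and 503 counts. The part of these cells in the differences above was not tested.

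Genes close to the targeted loci were called at shares no higher than that of all genes. Within 1 Mb of Il17rc 25 other genes were tested, and 9 near Il17rd, and none was called. Sets this small can hold no called gene at the share of all genes, so that absence decides nothing. Within 10 Mb 3.53% of 85 genes and 2.11% of 95 genes were called, beside 3.73% of all genes. Near Il17rc these were Chl1 and Cxcl12, higher in Il17rc KO, and Rassf4, lower, with Cxcl12 at 3.7 Mb from the locus. Near Il17rd they were Arhgap22, higher, and Sncg, lower. On chromosome X, where the libraries differed in Xist, 12 of 384 tested genes were lower in Il17rc KO (3.12%) and 0 higher, beside 2.57% and 1.16% of all genes. Of 14 genes known to escape X inactivation Xist was the 1 called, and Kdm6a was 1.54-fold lower (1.41 to 1.69).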

How the data were processed

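RNA-seq was performed on total RNA from 4 keratinocyte libraries, 1 for each group. Per the submitters' processing notes, Trim Galore 0.4.4, HISAT2, featureCounts, Subread and edgeR were used with mm10. For aligner settings, strandedness and multi-mapping reads nothing is given in the sources used here. The deposited tables held whole-number read counts per gene, which the authors made without normalization, and FPKM values, which the authors deposited beside them. The counts summed to 19711866 to 19904695 per library and were used for all ratios, and FPKM was used only to set levels of different genes side by side.

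Gene names were placed with GENCODE M21 (12853 rows) and RefSeq (114), and 118 could not be placed. Another 17 were dates and stayed in the counts without a name. Pseudogenes (738), mitochondrial genes (19) and chromosome Y genes (4) were left out, together 2.62% and 2.86% of the knockout counts. Genes had to reach a mean of 1 CPM over the 4 libraries, about 20.1 counts in a knockout library, which 131 did not.

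TMM factors came from edgeR 4.0.16 in R 4.3.3 over all 4 libraries. Ratios carry exact conditional binomial (Clopper-Pearson) 95% intervals (scipy 1.17.1), and a gene was called at 2-fold with an interval excluding 1. Log2 ratios used a prior count of 2. The ratio and interval code was tested on simulated data. Near-identical copies were sought with BLAST+ 2.17.0 (identity of 95% or above, 100 aligned bases or more, and 50% or more of 1 of the sequences) and were found for 1162 tested genes, 46 of them called. Promoter windows came from RefSeq, GRCm38.p6.

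Named were the 3 receptor genes, the 15 genes each way whose interval bound lay furthest from 1, up to 4 members of each pathway list and up to 2 of each marker list by size of log2 ratio, members of families, and Ddx3y and Xist. Genes named outside this rule were chosen after their values were seen. Members and lists were chosen with earlier results of these data known, so the lists describe and support nothing. Alternatives were DESeq2 1.42.0 size factors, library totals, TMM over the knockouts alone, other minimums, folds, intervals and priors, and the left-out rows kept or uncertain genes removed.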

Additional observations from a re-analysis of the deposited data

Results flagged for a closer look

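Rows set aside from the comparison also differed between the knockouts. Of 702 pseudogenes past the minimum, 43 were higher and 42 lower in Il17rc KO, beside 1.16% and 2.57% of the tested genes. Of the pseudogenes that differed, 44 also stood above untreated WT in at least 1 knockout. The like share over all genes was not formed. Among the 18 mitochondrial rows past the minimum 4 were higher in Il17rc KO and 0 lower, beside the same 1.16% and 2.57%. All 4 stood above untreated WT there. mt-Co2 had 18167 counts in Il17rc KO and 100 in Il17rd KO, against 82 in untreated WT and 1370 in IL-17A WT. mt-Atp6 had 9258 and 105 counts, against 71 and 1010, and mt-Atp8 had 4747 and 11, against 10 and 451. The remaining row called higher, mt-Te, had 425 and 181 counts, against 2 and 109, a smaller ratio of 2.40 (2.02 to 2.88). Mitochondrial genes such as mt-Nd1 and mt-Nd2 did not share this pattern, with 56937 and 60924 counts and 30864 and 31707. How reads were divided between the mitochondrial genome and nuclear copies was not tested.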

How the results depend on the processing

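Under DESeq2 size factors, library totals or TMM over the knockouts alone, 115 to 138 genes were higher in Il17rc KO and 319 to 350 lower, and the median log2 ratio of all genes moved from 0.01 to between -0.03 and 0.01. With a minimum of 10 CPM 66 genes were higher and 101 lower, among 9103 tested. At 1.5-fold 607 were higher and 831 lower, and with the whole interval past 2-fold 51 were higher and 120 lower. The share of calls that were higher went from 31.1% to 42.2% at 1.5-fold. The calls followed were those of 79 genes: Il17rc, Il17rd, Ddx3y, Xist, and genes named by interval bound or by list. Of these 76 kept their call under these 3 scalings and both other priors, and Etv4, Spry1 and Prc1 did not. Adamts1 and Ccna2, named outside these, also fell short of 2-fold under another scaling. At the lowest the mitotic list had 3 higher genes and the protease list 2. Other genes named outside the 79 were not followed individually. No direction reversed among these 79 genes. Of 60 named genes not called 57 stayed so. Flt1 and Tagln, of the endothelial and mural markers, and Lipk, a barrier lipid gene, became called lower under library totals. The Il17rc ratio ranged from 0.254 to 0.262 and the Il17rd ratio from 29.9 to 30.7. No paired analysis was possible because each group has 1 library, and no replicate could be left out. Depth limits genes near the minimum, where about 20.1 counts give wide intervals. The intervals hold no spread between animals, cultures or library preparations.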

Other observations

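Several gene families, chosen after their values were seen, leaned to 1 side. Some share members with the lists above, so their calls are in part the same genes. Each stands beside 1.16% of all genes called higher and 2.57% called lower. All 6 tested prolactin family genes, relatives of placental hormones, were lower in Il17rc KO, with a median log2 ratio of -1.42. Prl8a9 had 198 counts in Il17rc KO and 680 in Il17rd KO, against 210 in untreated WT and 569 in IL-17A WT, and Prl2c2, Prl2c3 and Prl2c5 have near-identical copies. Collagen chains had 7 lower genes of 30 and none higher, at a median of -0.57. Fibroblast markers, some of them collagens, moved with them, at a median of -0.65 and a summed level of 587 CPM in Il17rc KO and 912 in Il17rd KO, and their part was not tested. Col8a1 had 1885 and 6469 counts, against 1709 and 4741, and Col12a1 had 1662 and 4393, against 5810 and 2110. The matrix gene Fbln2 had 1648 and 5504 counts, against 2411 and 5593, and Igfbp3, an insulin-like growth factor binding protein gene, had 1784 and 5782, against 2114 and 8685. Of 11 S100 genes 3 were lower, S100a7a, S100a8 and S100a9, all counted among the antimicrobial genes, and the median of the family was 0.06, with the abundant S100a10 and S100a11 inside 2-fold.

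Complement genes were lower in Il17rc KO in 7 of 9 tested cases, and macrophage genes, which share the C1q genes with them and Lyz2, Laptm5 and Csf1r with the immune markers, in 12 of 15. Mrc1, the mannose receptor, had 8 counts in Il17rc KO and 58 in Il17rd KO, against 104 in untreated WT and 77 in IL-17A WT. Ctss, a lysosomal protease of antigen-presenting cells, had 12 and 60 counts, against 239 and 106. For both genes the Il17rc KO library was the lowest of the 4 and untreated WT the highest. Cd68, with 547 and 663 counts, was inside 2-fold. Known FOXO targets had 5 lower genes of 22 and none higher, at a median of -0.51. Fbxo32, a ubiquitin ligase of atrophy, had 549 and 1432 counts, against 1424 and 827, and Pdk4, a kinase that restrains pyruvate oxidation, had 25 and 113, against 86 and 12. The epithelial sodium channel genes Scnn1b and Scnn1g were higher, with 180 and 58 and 160 and 70 counts, against 128 and 36 and 124 and 46, and Scnn1a, with 482 and 443, was not. They were the 2 called of 5 sodium channel and aquaglyceroporin genes.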
